A study of Mus musculus with 21 samples.

Results

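The genes described here make, modify, store and take up fatty acids and the lipids of sebum. The 50 members were chosen by gene symbol from the expression table, which has 22050 entries, and cover fatty acid synthesis, desaturation, elongation and activation, wax, triglyceride and sterol ester synthesis, lipid droplets, fatty acid uptake, and 3 regulators. They were chosen with earlier results of these data known, so their shares beside those of all genes describe the list and are not an independent test. All 50 were in the table, and 44 had a mean of at least 1 normalized read over the 8 samples and were tested. A normalized read is a read count divided by the size factor of its sample. The 6 members not tested were Fads2, Awat1, Plin1, Plin4, Cidec and Fabp4.

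Expression was profiled by RNA sequencing in GFP+ keratinocytes from the dorsal skin of mice on a mixed FVB, C57Bl and 129sv background. The authors' methods give the C57Bl strain as C57Bl6. The p16 group carried K5-rtTA, tet-GFP and tet-p16, a human p16 transgene, and the control group carried K5-rtTA and tet-GFP only. Both groups received doxycycline from 3 weeks of age for 6 months, with 4 samples per group, and each sample pooled about 80000 sorted cells of 3 mice. The comparison asks how the long-term presence of p16 in keratinocytes relates to their gene expression. The keratin 5 promoter that drives rtTA is active in basal epidermal cells and in the basal cells of its appendages, so the sort could recover cells of the interfollicular epidermis, the hair follicle and the sebaceous gland, and did not separate them. Cells positive for CD45, CD31 or CD140a, which mark immune cells, endothelial cells and fibroblasts, had been gated out. Between 1760953 and 3414362 reads fell on genes in the control samples, and between 2884544 and 3202975 in the p16 samples.

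Mammalian cells build palmitate from acetyl-CoA and malonyl-CoA, lengthen it in a cycle at the endoplasmic reticulum, introduce double bonds with desaturases, and esterify the acyl-CoA products to glycerol, cholesterol or fatty alcohols. The esters collect in lipid droplets under a coat of perilipins. In skin, sebocytes run this program at high rates and burst to release wax esters, triglycerides and cholesterol esters as sebum, while interfollicular keratinocytes use fatty acids mainly for membranes and barrier lipids.

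The transgenes were read first, as a check of the labels. EGFP was read in all samples, at 4152.0, 5798.2, 5458.0 and 5912.6 normalized reads in control samples 1 to 4 and at 3624.4, 3978.8, 3161.8 and 3453.3 in p16 samples 1 to 4. It was lower in the p16 group in limma (log2 fold change -0.58, limma adjusted p = 0.0167, with adjustment over all genes), with every p16 sample below every control. The human CDKN2A transgene had 0.7, 1.3, 2.5 and 1.5 normalized reads in the control samples and 1.6, 10.1, 16 and 7.4 in the p16 samples, a difference that missed the threshold of 0.05 (limma adjusted p = 0.0952). The other 3 p16 libraries lay above every control, but the library labelled p16 replicate 1 lay inside the control range, with 2 reads. At this depth its transgene level could not be told from that of the controls. In all lists of values that follow, the samples stand in the order of replicates 1 to 4, so the p16 list opens with the library labelled p16 replicate 1. The mouse Cdkn2a gene had 0.7, 0.0, 3.3 and 1.5 normalized reads in controls and 4.8, 5.5, 0.0 and 0.0 in p16 samples, and the groups overlapped.

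Of the 44 tested lipid genes, 14 were lower in the p16 group at a limma p under 0.05 after Benjamini-Hochberg adjustment over all genes, which is termed called below, where 2.61% of all 12782 genes tested were called lower. These were Scd1, Fads3, Elovl3, Elovl6, Hacd2, Acsl5, Acot1, Awat2, Soat1, Plin2, Cidea, Cd36, Lpl and Pparg. On whole reads recovered from the normalized values, edgeR and DESeq2 each called 13 members lower, where each called 2.79% of all genes lower. Genes with few reads, among them the members Scd3, Awat2, Cd36 and Mc5r, had no edgeR value, as edgeR tested 10700 genes. No member was called higher by limma, edgeR or DESeq2, where 1.24%, 1.5% and 1.48% of all genes were. At an unadjusted limma p under 0.05, 1 member was higher (all genes 7.02%). At that unadjusted threshold 21 were lower (all genes 8.93%). In 17 of the 44 every p16 sample lay below every control sample (all genes 5.63%), and in 0 every p16 sample lay above (all genes 4.19%). The median log2 fold change over the 44 was -0.37, against 0.00 over all genes tested, and single members ranged from -3.04 to 0.32. It was also -0.37 with Mc5r, which had no read in p16 samples, set at the bound given below. All log2 fold changes are differences of log2(normalized reads + 1), which understates the change of genes with few reads. In bulk samples such as these, fewer cells of a type and less RNA per cell cannot be told apart. Without the library labelled p16 replicate 1 the number called lower was 10, and without Control replicate 3, or without replicate 3 of both groups, it was 9.

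Summed over all 50 members, the control samples held 10484.0, 9868.0, 10503.2 and 10890.2 normalized reads and the p16 samples 7337.1, 7959.3, 7475.2 and 7695.6. The p16 mean was thus 73.0% of the control mean, with no overlap between groups. The enoyl-CoA reductase gene Tecr contributed the most reads to this sum.

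**Figure D1:**
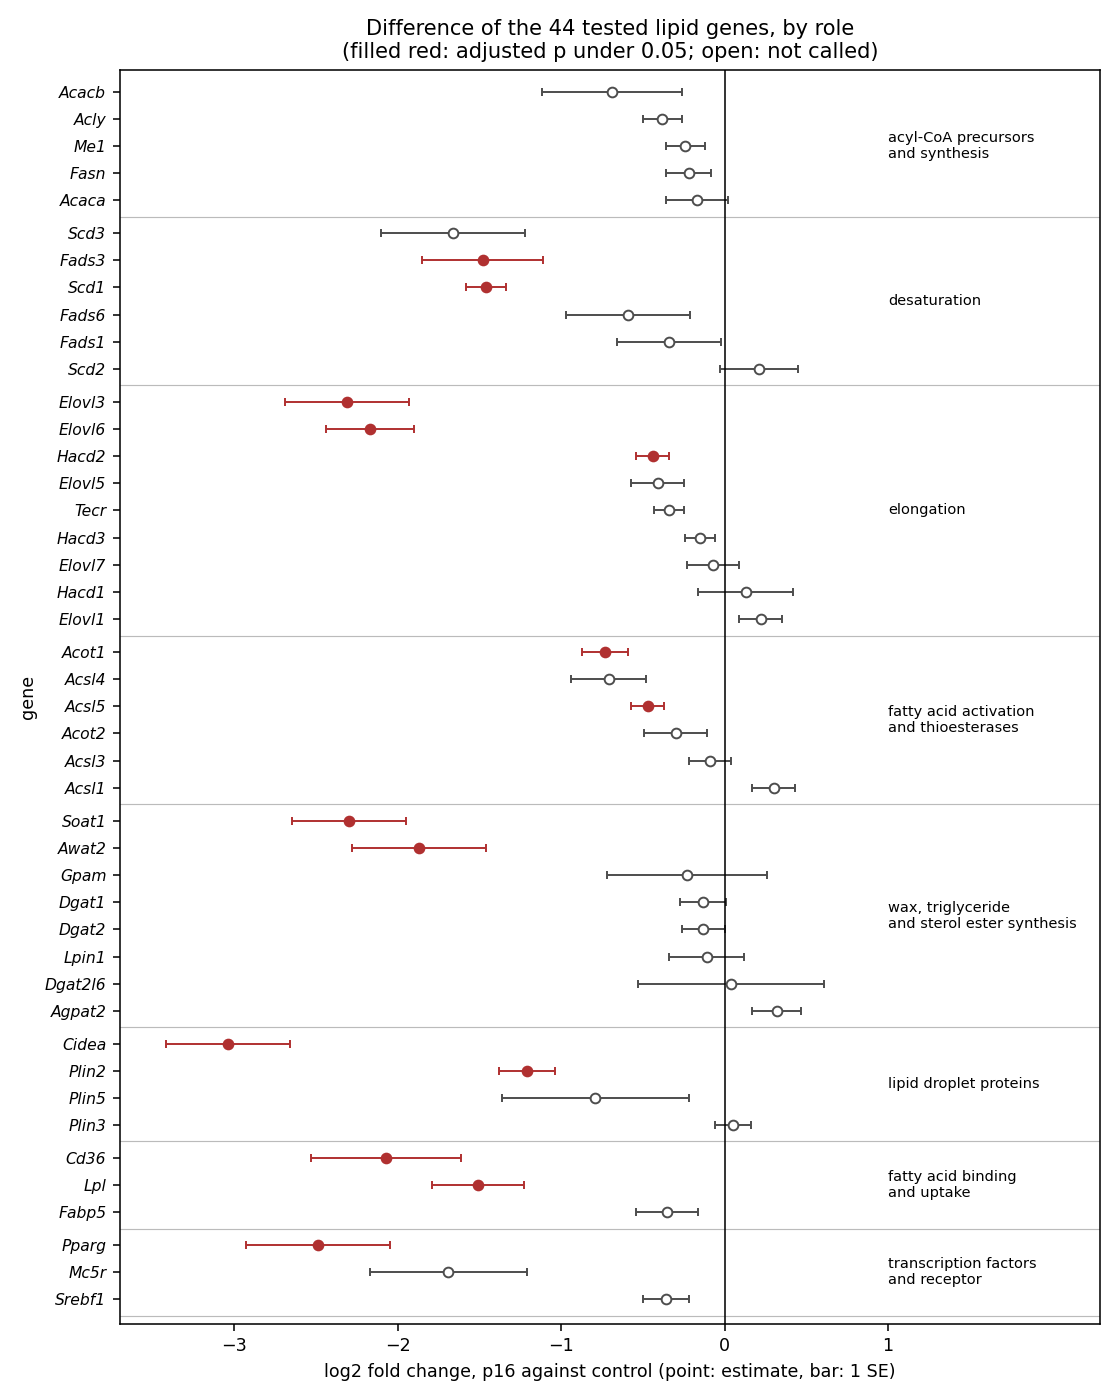
Log2 fold change of p16 against control samples (x axis, on the log2(normalized reads + 1) scale) for the 44 lipid genes tested, grouped by role; points are limma estimates, bars are 1 SE, and filled red points have an adjusted p under 0.05. All 14 filled points lie left of 0, from Cidea at -3.04 to Hacd2 at -0.44. Mc5r had no read in p16 samples, so its point depends on the pseudocount.

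The 5 genes of precursor supply and fatty acid synthesis gave no call in limma, edgeR or DESeq2, and 1, Acly, was lower at an unadjusted limma p under 0.05. Fasn, the synthase that makes palmitate, had 168.4, 128.3, 157.0 and 195.6 normalized reads in controls and 123.1, 129.6, 133.9 and 168.6 in p16 samples. Acaca, the cytosolic carboxylase that makes malonyl-CoA, had 81.6, 46.2, 61.8 and 88.6 in controls and 60.0, 53.1, 63.0 and 63.3 in p16 samples. Both genes overlapped between the groups, and their log2 fold changes were -0.22 (95% interval -0.53 to 0.09, limma adjusted p = 0.509) and -0.17 (-0.58 to 0.24, limma adjusted p = 0.741). A fall in Fasn beyond 0.53 on this scale therefore lies outside the interval. Acly, which splits citrate into acetyl-CoA, averaged 367 ± 53.8 normalized reads in controls and 281 ± 23.7 in p16 samples (SD, n = 4; log2 fold change -0.38, limma adjusted p = 0.103). It passed only without Control replicate 2, at an adjusted p of 0.0295 in a range of 0.0295 to 0.299 over all settings tried. The NADPH-producing malic enzyme Me1 and the mitochondrial carboxylase Acacb were at -0.24 and -0.69, both with overlapping groups.

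Among the desaturases, Scd1, Fads3 and the uncalled Scd3 were separated between the groups. Scd1 (chr19:44394455-44407879, minus strand) encodes the stearoyl-CoA desaturase that places the double bond of oleate and palmitoleate, and mice without it have rudimentary sebaceous glands. It had 775.2, 677.6, 822.7 and 796.0 normalized reads in controls and 230.3, 339.6, 266.9 and 282.8 in p16 samples. The lowest control was well above the highest p16 sample, replicate 2. The means were 768 ± 63.2 and 280 ± 45.5 (SD, n = 4), a 2.74-fold lower level, with a log2 fold change of -1.46 ± 0.12 (SE) and a limma adjusted p of 1.11e-05. Scd1 was called under every alternative, with adjusted p-values between 6.5e-26 and 0.00073. Its neighbour Scd2, a desaturase of the same family, was not called, at 120 ± 63.2 in controls and 128 ± 14.6 in p16 samples (log2 fold change 0.21, 95% interval -0.3 to 0.73, limma adjusted p = 0.747). Scd3 was read at 8.03 ± 4.41 in controls and 1.68 ± 0.78 in p16 samples, and missed the threshold at a limma adjusted p of 0.0512 although the groups did not overlap. It passed without a filter on low values (0.0466) and without Control replicate 2 (0.0374), in a range of 0.0374 to 0.185. Whether Scd1 differed more than Scd2 was not tested.

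Fads3 (chr19:10041569-10060110, plus strand), a desaturase of sphingoid bases, had 9.6, 9.0, 15.0 and 16.8 normalized reads in controls and 5.6, 5.5, 3.5 and 1.6 in p16 samples. All p16 samples lay below all controls, but the call rested on few reads, 49 and 20 per group. Its mean fell from 12.6 ± 3.89 to 4.05 ± 1.9 (SD, n = 4; 3.11-fold; log2 fold change -1.48 ± 0.37 SE; limma adjusted p = 0.0413). The call was kept in edgeR (0.0391) and without Control replicate 2 (0.0497) or p16 replicate 2 (0.0408). It was lost with a pseudocount of 0.1 (0.0639), with no filter on low values (0.0568), with equal totals (0.0507) and in DESeq2 (0.066). It was also lost with replicate number as a block (0.063) and without replicate 3 of both groups (0.212). The same held without Control replicate 1 (0.0752), 3 (0.117) or 4 (0.117). Leaving out p16 replicate 3 (0.0935), 4 (0.0787) or the library labelled p16 replicate 1 (0.0578) ended the call too. Over all settings the adjusted p ranged from 0.0391 to 0.212. Fads1, a desaturase of polyunsaturated fatty acids, and Fads6 were not called, at -0.34 and -0.59. Fads2 was listed at 0 in every sample, which says only that no read was assigned to it.

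In the elongation cycle 3 genes were called lower, and the larger differences were in the condensing enzymes Elovl3 and Elovl6. Elovl3 (chr19:46131897-46135694, plus strand) extends saturated and monounsaturated chains and is known from sebaceous glands and brown fat. It had 50.4, 20.5, 51.8 and 45.8 normalized reads in controls and 4.8, 17.2, 5.3 and 5.8 in p16 samples. Control replicate 2 and p16 replicate 2 came closest to each other, yet the groups did not overlap. The mean was 42.1 ± 14.6 in controls and 8.28 ± 5.96 in p16 samples (SD, n = 4), 5.09-fold lower (7.95-fold without p16 replicate 2), with a log2 fold change of -2.31 ± 0.38 (SE) and a limma adjusted p of 0.00354. Elovl6 (chr3:129532355-129638495, plus strand), which turns palmitate into stearate, had 511.9, 429.9, 324.1 and 351.4 in controls and 68.8, 177.2, 89.6 and 53.4 in p16 samples. Here too p16 replicate 2 was the highest of its group and still below all controls. The Elovl6 mean was 404 ± 84.6 against 97.2 ± 55.3 (SD, n = 4), 4.16-fold lower, at a log2 fold change of -2.17 ± 0.27 (SE) and a limma adjusted p of 0.000384. Both condensing enzymes were called under all alternatives.

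Hacd2 (chr16:35022428-35109177, plus strand), a dehydratase of the same cycle, differed less, at 333.8, 337.5, 374.2 and 314.7 normalized reads in controls and 266.3, 256.1, 250.0 and 231.9 in p16 samples. The 4 p16 samples were close together and below the controls. The means were 340 ± 24.9 and 251 ± 14.4 (SD, n = 4), 1.35-fold lower (log2 fold change -0.44 ± 0.1 SE, limma adjusted p = 0.0201). The Hacd2 call was lost without Control replicate 1 (0.0553) or 3 (0.0671), without p16 replicate 3 (0.0517) and without replicate 3 of both groups (0.141), in a range of 0.00405 to 0.141. Tecr, the reductase that closes the cycle, had 2582.3, 2547.5, 2514.8 and 2944.1 in controls and 2105.2, 1929.3, 2112.9 and 2239.7 in p16 samples. Its groups did not overlap and its mean was 1.26-fold lower, but limma gave an adjusted p of 0.0595 (log2 fold change -0.34 ± 0.09 SE). Tecr passed in edgeR (0.0468), in DESeq2 (0.00708), with replicate number as a block (0.0456) and without p16 replicate 4 (0.0379). Its adjusted p ranged from 0.00708 to 0.168. Elovl5, an elongase of polyunsaturated chains, averaged 93.4 ± 14.7 in controls and was 1.33-fold lower in p16 samples, with overlapping groups and a limma adjusted p of 0.196. The other 4 genes of the cycle, Elovl1, Elovl7, Hacd1 and Hacd3, lay between -0.15 and 0.22 with overlapping groups.

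Fatty acids enter each of these paths as acyl-CoA, made by acyl-CoA synthetases and split by thioesterases. Acot1 (chr12:84009490-84018371, plus strand), a cytosolic thioesterase, had 878.3, 863.7, 939.6 and 980.8 normalized reads in controls and 474.1, 681.6, 669.4 and 420.1 in p16 samples. The p16 samples varied more than the controls and all lay below them. The mean fell from 916 ± 54.5 to 561 ± 134 (SD, n = 4; 1.63-fold; log2 fold change -0.73 ± 0.14 SE; limma adjusted p = 0.00905), and the call was kept under all alternatives. Acsl5 (chr19:55251938-55297720, plus strand), a synthetase for long chains, had 276.0, 310.6, 332.4 and 301.0 in controls and 199.1, 238.1, 205.7 and 240.1 in p16 samples. Its groups did not overlap, and its means were 305 ± 23.4 and 221 ± 21.4 (SD, n = 4; 1.38-fold; log2 fold change -0.47 ± 0.1 SE; limma adjusted p = 0.022). The Acsl5 call was lost without Control replicate 2 (0.0533) or 3 (0.0731), without p16 replicate 3 (0.0691), without the library labelled p16 replicate 1 (0.0907) and without replicate 3 of both groups (0.179), in a range of 0.00703 to 0.179.

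The other members of this role were not called. Acsl4, the synthetase that favours arachidonate, averaged 204 ± 59.8 in controls and 125 ± 40.6 in p16 samples, with overlap and a limma adjusted p of 0.121. Among the fits that left out a sample it passed without p16 replicate 2 (0.0407). It also passed with replicate number as a block (0.00961), the lower end of a range up to 0.301 over all settings. Acsl1, a synthetase tied to triglyceride synthesis and oxidation, was the 1 member higher at an unadjusted p under 0.05, at 142 ± 12.2 in controls and 176 ± 27.4 in p16 samples (log2 fold change 0.3, limma adjusted p = 0.271). Acsl3 and Acot2, a mitochondrial thioesterase, lay at -0.09 and -0.3 with overlap.

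Among the genes of esterification Soat1 and Awat2 were called lower, and the other 6 tested lay between -0.23 and 0.32. Soat1 (chr1:156424525-156474331, minus strand) esterifies cholesterol with fatty acids. It had 43.8, 29.5, 48.4 and 16.8 normalized reads in controls and 4.8, 10.1, 4.4 and 4.9 in p16 samples. Control replicate 4 was low and p16 replicate 2 high, and the groups did not overlap. The means were 34.6 ± 14.4 and 6.05 ± 2.71 (SD, n = 4), 5.72-fold lower, with a log2 fold change of -2.3 ± 0.35 (SE) and a limma adjusted p of 0.00192, and the gene was called under all alternatives. Awat2 (chrX:100402221-100442717, minus strand), a wax synthase of the sebaceous and Meibomian glands, had 5.9, 7.7, 10 and 10.7 in controls and 0.8, 3.9, 0.9 and 1.6 in p16 samples. These values stand for 33 and 9 reads per group. They gave means of 8.57 ± 2.2 and 1.8 ± 1.44 (SD, n = 4; 4.76-fold, or 7.8-fold without p16 replicate 2; log2 fold change -1.87 ± 0.41 SE; limma adjusted p = 0.0201). The Awat2 call was lost in DESeq2 (0.0548), without Control replicate 3 (0.0653) or 4 (0.0589), without p16 replicate 3 (0.0563), without the library labelled p16 replicate 1 (0.0682) and without replicate 3 of both groups (0.144), in a range of 0.00808 to 0.144.

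The members that act in triglyceride synthesis gave no call. Dgat2, which completes triglycerides, had 199.6, 184.8, 202.1 and 265.8 normalized reads in controls and 187.1, 166.3, 196.8 and 225.3 in p16 samples. Its groups overlapped, with a log2 fold change of -0.13 (95% interval -0.41 to 0.15, limma adjusted p = 0.712). Dgat1, Lpin1, Gpam, Agpat2 and Dgat2l6 lay between -0.23 and 0.32, all with overlap. Awat1, another wax synthase, had 3 reads in controls and 2 in p16 samples and was not tested, so no difference was detectable at this depth.

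Of the lipid droplet proteins, Cidea and Plin2 were called lower. Cidea (chr18:67343604-67367785, plus strand) promotes the fusion of droplets and is expressed in sebocytes and brown fat. It had 52.7, 109.1, 69.3 and 79.4 normalized reads in controls and 4.0, 21.1, 6.2 and 8.2 in p16 samples. Replicate 2 was the highest sample in both groups, and the groups were well apart. The means were 77.6 ± 23.7 and 9.88 ± 7.68 (SD, n = 4), 7.86-fold lower (12.7-fold without p16 replicate 2), with a log2 fold change of -3.04 ± 0.38 (SE) and a limma adjusted p of 0.000364. Plin2 (chr4:86648386-86670060, minus strand), the perilipin that coats droplets in most cell types, had 394.7, 277.2, 382.5 and 461.4 in controls and 141.5, 215.5, 164.9 and 134.0 in p16 samples. Every p16 sample was below the lowest control, replicate 2. Its mean fell from 379 ± 76.2 to 164 ± 36.8 (SD, n = 4; 2.31-fold; log2 fold change -1.21 ± 0.17 SE; limma adjusted p = 0.000784). Both genes were called under all alternatives.

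Plin3, another widely expressed perilipin, was not called, at 509 ± 34.6 in controls and 530 ± 87.8 in p16 samples (log2 fold change 0.05, 95% interval -0.2 to 0.29, limma adjusted p = 0.901). The other droplet proteins were hardly read. Plin1 had 2 reads in controls and 0 in p16 samples, and Plin4 had 3 and 0, both at or below the 3 reads over a group taken as the limit of detection. Cidec had 6 and 1 reads, a count ratio of 7.35 with a 95% Clopper-Pearson interval of 0.892 to 338, and Plin5 had 6 and 2 reads, a ratio of 3.68 (0.657 to 37.2). Both intervals include 1 and cover counting error only.

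Fatty acid uptake was represented by Lpl, Cd36, Fabp4 and Fabp5. Lpl (chr8:68880491-68907448, plus strand), the secreted lipase that frees fatty acids from lipoproteins, had 154.3, 184.8, 176.2 and 134.4 normalized reads in controls and 53.6, 101.5, 64.7 and 28.0 in p16 samples. The p16 samples spread widely, from replicate 4 to replicate 2, below all controls. The means were 162 ± 22.7 and 62.0 ± 30.5 (SD, n = 4), 2.62-fold lower, with a log2 fold change of -1.51 ± 0.28 (SE) and a limma adjusted p of 0.0071, and Lpl was called under all alternatives. Cd36 (chr5:17781690-17888801, minus strand), a membrane transporter of fatty acids, had 8.2, 6.4, 9.2 and 3.1 in controls and 0.8, 0.8, 1.8 and 0.0 in p16 samples. Only 4 reads stood behind the p16 values, against 29 in controls. The means were 6.72 ± 2.68 and 0.85 ± 0.737 (SD, n = 4; 7.91-fold, or 5.93-fold without p16 replicate 4; log2 fold change -2.07 ± 0.46 SE; limma adjusted p = 0.0206). Without p16 replicate 3 the p16 reads fell below the limit of detection of 3 reads, so no ratio is given for that setting. The Cd36 call was lost with a pseudocount of 0.1 (0.0681), without Control replicate 1 (0.0793) or 3 (0.0745), without the library labelled p16 replicate 1 (0.0552) and without replicate 3 of both groups (0.0822), in a range of 0.0134 to 0.0822. Fabp5, the fatty acid binding protein of keratinocytes, had 353.9, 202.8, 471.1 and 268.9 in controls and 223.1, 249.1, 266.9 and 230.2 in p16 samples, with overlap (log2 fold change -0.35, 95% interval -0.77 to 0.06, limma adjusted p = 0.41). Fabp4, the form of adipocytes, was listed at 0 in every sample.

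The regulators differed in size. Pparg (chr6:115360951-115490399, plus strand), the nuclear receptor needed for sebocyte and adipocyte differentiation, had 55.6, 44.9, 45.9 and 38.2 normalized reads in controls and 3.2, 21.9, 10.6 and 3.3 in p16 samples. All p16 samples were below the controls, with replicate 2 again the highest. The means were 46.2 ± 7.17 and 9.75 ± 8.81 (SD, n = 4), 4.73-fold lower (8.1-fold without p16 replicate 2), with a log2 fold change of -2.49 ± 0.44 (SE) and a limma adjusted p of 0.00545, and Pparg was called under all alternatives. Srebf1, the factor that activates genes of fatty acid synthesis, had 244.8, 338.8, 265.6 and 343.8 in controls and 246.3, 244.4, 183.5 and 254.9 in p16 samples. Its groups overlapped, and it was not called (log2 fold change -0.36, 95% interval -0.65 to -0.06, limma adjusted p = 0.208). Mc5r, a melanocortin receptor of sebaceous glands, had 1.5, 3.9, 2.5 and 1.5 in controls, 9 reads in all, and 0.0 in every p16 sample. Against a limit of 3 reads over the p16 group it was at least 3.68-fold lower, and it missed the threshold (limma adjusted p = 0.0733) except without a filter on low values (0.0107), in a range of 0.0107 to 0.259.

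**Figure D2:**
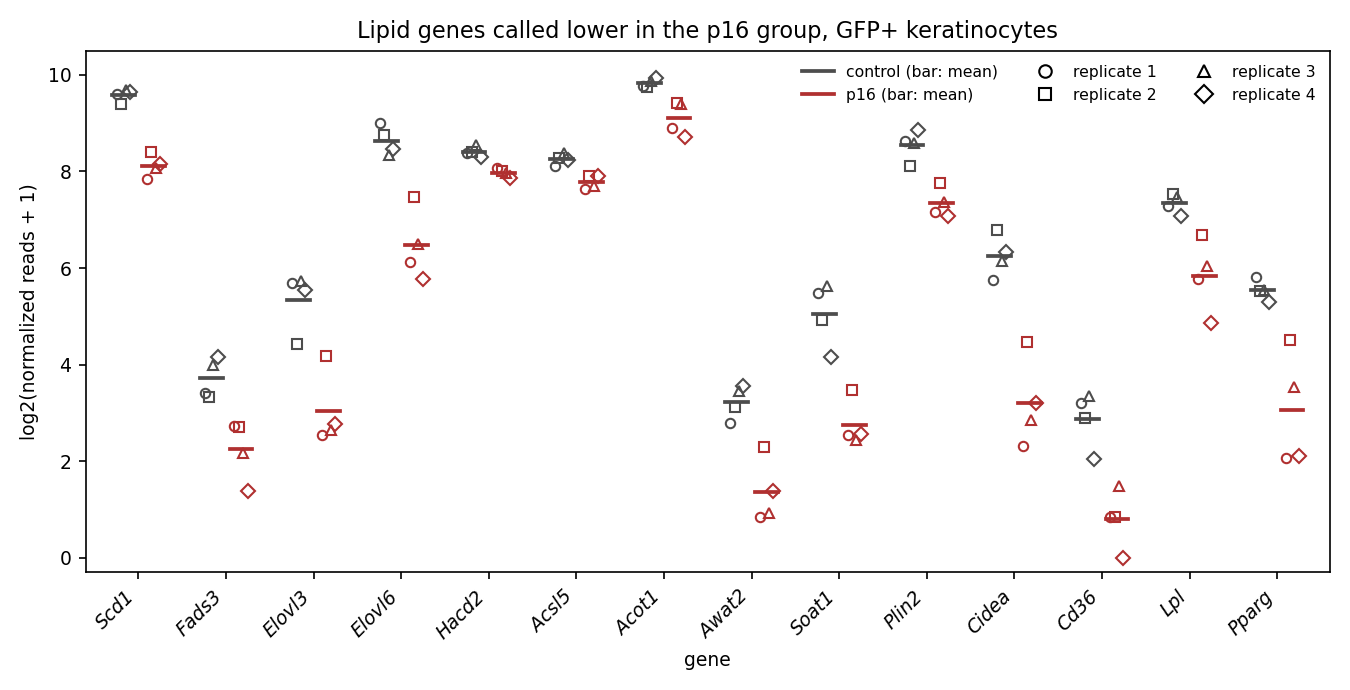
Expression of the 14 lipid genes called lower, as log2(normalized reads + 1) on the y axis, in each of the 4 control (grey) and 4 p16 (red) samples; symbols mark the replicate and bars the group mean. No p16 sample reaches the lowest control of its gene, and p16 replicate 2 (square) is the highest p16 sample for 10 of the 14 genes.

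For each of the 14 called genes the exact two-sided permutation test gave p = 0.0286, the smallest that 4 samples against 4 allow. Any gene whose groups do not overlap gets this value, as did the uncalled Scd3, Tecr and Mc5r. It therefore adds nothing to the calls. Of the 14 called genes, 9 were called whichever of the 8 samples was left out, namely Scd1, Elovl3, Elovl6, Acot1, Soat1, Plin2, Cidea, Lpl and Pparg. The p16 samples were not equal among themselves. In comparisons of whole libraries, p16 replicate 4 lay furthest from the other p16 libraries, at a chi-square per degree of freedom of 6.75 to 8.96. The other p16 libraries lay at 3.05 to 3.31 from each other. For 10 of the 14 genes p16 replicate 2 had the highest value of its group, which also held for 49.1% of all 334 genes called lower and for 24.4% of all genes tested. Without p16 replicate 2 the number of lipid genes called lower was 15.

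Markers of several cell types were read beside these genes. Of 9 sebaceous gland markers tested, 4 were called lower, among them Mgst1, Far2 and Gata6, and the list's median log2 fold change was -0.7. The 10 markers summed to 6364.9, 6162.7, 6932.2 and 8367.8 normalized reads in controls and 5600.9, 5977.5, 6282.0 and 5292.5 in p16 samples, and these sums overlapped. Krt79, a keratin of sebaceous ducts, held most of the reads in every sum, so the overlap says little about the other markers. Krt79 was not called, at 4970 ± 1020 in controls and 4510 ± 389 in p16 samples (limma adjusted p = 0.724), and Gal was listed at 0 throughout. Mgst1 had 476.3, 449.2, 484.4 and 433.9 in controls and 119.1, 205.3, 119.7 and 102.8 in p16 samples (log2 fold change -1.8, limma adjusted p = 3.95e-05). Krt7 lay the other way, at 31.6 ± 4.0 in controls and 43.6 ± 11.8 in p16 samples (log2 fold change 0.42, limma adjusted p = 0.351). Apoc1, Prdm1 and Muc1 were not called, at -0.21, -0.31 and -0.7. The list median is the value of Muc1, which had only 6 reads in controls and 3 in p16 samples. The sebaceous markers thus moved in part with the lipid genes, and their part in the result was not tested.

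Hair-follicle stem cell markers were lower for the most part as well. Of the 8 tested, Cd34, Krt15, Lhx2, Sox9, Nfatc1 and Tcf7l1 were called lower, with a list median of -0.71. Postn lay the other way, higher at an unadjusted limma p under 0.05, at 287 ± 90.9 in controls and 501 ± 207 in p16 samples (SD; log2 fold change 0.73, limma adjusted p = 0.272), with overlapping groups. Krt15 had the most reads, 11381, 10236, 10290 and 8065 before scaling in controls and 8835, 8654, 7452 and 9528 in p16 samples. Its reads followed the depth of the control libraries only in part, so its call is not read as a difference in level and no sum over the list is given. None of the 8 was at 0. Cd34 fell from 169 ± 51.4 to 11.8 ± 4.08 (SD, n = 4; log2 fold change -3.74, limma adjusted p = 3.27e-06). The part of follicular cells in the result was not tested.

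Adipocytes express many of the same lipid genes, and the authors removed adipose tissue from the skin before the cells were dissociated. Adipoq, Lep, Cfd, Car3 and Pck1 were listed at 0 in all samples, which here and for the other genes at 0 says only that no read was assigned to them. The 9 adipocyte markers summed to between 11.6 and 26.7 normalized reads in controls and between 17.9 and 36.8 in p16 samples, Adrb3 had the most reads, and 0 of the 3 tested were called by limma, edgeR or DESeq2 or passed an unadjusted limma p under 0.05. The basal keratinocyte markers Krt5, Krt14, Trp63, Itga6, Itgb4 and Col17a1 were read in every sample, and 0 of the 6 were called by these tools, with 2 higher at an unadjusted limma p under 0.05. Krt5 had between 11761 and 12279 reads before scaling in each of the 8 samples and Krt14 between 10186 and 12146, although the reads on genes differed more. The counts of these 2 keratins followed depth little, so the lack of a call says nothing about their level. Of 7 suprabasal markers, Ivl and Sbsn were called lower and Lor higher. Among melanocyte markers Dct was called lower, 1 of 3 tested, and 2 were lower at an unadjusted limma p under 0.05. Dct had 342.0, 75.7, 32.6 and 128.3 normalized reads in controls and 14.4, 47.6, 12.4 and 9.0 in p16 samples. Its means were 145 ± 137 and 20.9 ± 18.0. Control replicate 1 and p16 replicate 2 stood highest in their groups, which overlapped. Fibroblast, immune and endothelial markers gave 0 calls in 4, 4 and 1 tested by the same tools, with 1 fibroblast gene lower, 1 fibroblast gene higher and 1 immune gene higher at an unadjusted p under 0.05, and Lum, Lyz2, Cdh5, Kdr and Emcn were listed at 0.

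Other genes of the same pathways were read for comparison. Of 87 listed, 86 were in the table and 72 were tested, 6 were called lower, and 0 were called higher by limma, edgeR or DESeq2, where 2.61% and 1.24% of all genes were called lower and higher by limma. The number lower was 3 in each of the fits without Control replicate 1, without the library labelled p16 replicate 1 and without replicate 3 of both groups. At an unadjusted limma p under 0.05, 13 were lower and 2 higher, and the list's median was -0.03. Far2 and Lipe, 2 of these genes, also stand among the sebaceous and adipocyte markers. Far2, the reductase that makes fatty alcohols for wax esters, had 112.8, 74.4, 129.5 and 93.2 normalized reads in controls and 8.8, 40.6, 23.1 and 12.3 in p16 samples (-2.41 on the log2 scale, limma adjusted p = 0.00137). Insig2, which holds the SREBP precursors at the endoplasmic reticulum, averaged 334 ± 36.0 and 191 ± 18.0 (-0.8, limma adjusted p = 0.000705). The acyl-CoA synthetase Acsbg1 averaged 375 ± 24.7 and 253 ± 30.9 (-0.57, limma adjusted p = 0.00715). Far2 and Insig2 were called under every alternative, and Acsbg1 under all but the fit without replicate 3 of both groups (0.0504).

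The remaining calls of this list were less stable. The mitochondrial citrate carrier Slc25a1, which exports the substrate of Acly, averaged 322 ± 19.2 and 240 ± 14.8 (log2 fold change -0.42, limma adjusted p = 0.0228). The transcription factor gene Cebpb averaged 913 ± 56.7 and 684 ± 88.4 (-0.42, limma adjusted p = 0.0339), and the monoacylglycerol acyltransferase Mogat1 averaged 8.43 ± 5.0 and 1.45 ± 0.443 (-1.81, limma adjusted p = 0.0317). Slc25a1 lost its call with equal totals (0.0538), without replicate 3 of both groups (0.103), without Control replicate 1 (0.0739) or 3 (0.0743) or the library labelled p16 replicate 1 (0.075), in a range of 0.00614 to 0.103. Cebpb lost it without replicate 3 of both groups (0.0586), without any 1 of the controls, without p16 replicate 2 and without the library labelled p16 replicate 1, where it reached 0.135, and Mogat1 without any 1 sample other than Control replicate 3, up to 0.101 without Control replicate 4. The lower limits over all settings were 0.00809 and 0.0182.

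Reads of near-identical sequences could have been divided between genes. Among 50-base stretches in the last 500 bases of the protein-coding transcripts, 40.6% of those of Hacd1, 22.4% of Acaca, 8.73% of Elovl6, 7.36% of Tecr and 7.21% of Acot1 also occurred in transcripts of other genes, Acot2 in the case of Acot1. For Scd3 the share was 3.44%, with Scd1 and Scd2, and for Plin2 2.38%. How many reads were divided in this way was not tested. The last exon of Elovl3 overlaps Pitx3 and that of Acsl5 overlaps Zdhhc6 on the opposite strand, as do those of Srebf1 with Rai1, Elovl1 with Cdc20, Agpat2 with Egfl7 and Plin4 with Hdgfl2, and whether the counting used strand is not given in the sources used here. Pitx3 was listed at 0 in all samples, Zdhhc6 averaged 94.4 ± 15.0 in controls and 96.1 ± 5.81 in p16 samples, and Rai1 87.1 ± 19.2 and 107 ± 18.7 (not called, log2 fold change 0.3, limma adjusted p = 0.45).

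Promoter sequences from RefSeq on GRCm38.p6, 250 bases before to 50 after the start, were found for 39 of the 50 members, 10 of them called. Both strands were searched for CCAAT, the box bound by NF-Y, for CACCCCAC, the core of the sterol regulatory element bound by SREBP, for that core with AT before it, and for AGGTCA repeated with 1 base between, the element bound by PPAR with RXR. CCAAT was found in a window of 25 of the 39 members (64.1%), against 41.1% of the 27025 genes of the promoter table, 43.0% of the 9717 tested genes found in it and 42.3% of the 239 genes called lower found in it. It was present in 8 of the 10 called members, all but Elovl6 and Hacd2. The core CACCCCAC was found in 4 members (10.3%; all genes 3.3%), Acsl1, Elovl7, Gpam and Tecr, none of them called. The core preceded by AT and the PPAR element were found in 0 members, and in 0.0999% and 0.0481% of all genes. A member with several starts had several windows, and a match is only a description of the letters.

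The following windows show these letters in called and uncalled members, with CCAAT, its reverse complement ATTGG and CACCCCAC in capitals. Soat1 and Plin2 were called and hold CCAAT, Elovl6 was called and holds none of the motifs, and Fasn and Tecr were not called. Fasn holds the box on both strands, with copies that overlap, and Tecr holds 3 copies of the reverse complement and the core CACCCCAC.
Soat1 (chr1:156474279-156474578, minus strand): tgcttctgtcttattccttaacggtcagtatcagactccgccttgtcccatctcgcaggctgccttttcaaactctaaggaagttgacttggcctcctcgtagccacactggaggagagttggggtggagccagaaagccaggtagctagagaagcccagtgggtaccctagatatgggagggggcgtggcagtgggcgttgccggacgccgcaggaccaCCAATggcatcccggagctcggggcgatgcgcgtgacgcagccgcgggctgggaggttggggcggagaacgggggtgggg
Plin2 (chr4:86670010-86670309, minus strand): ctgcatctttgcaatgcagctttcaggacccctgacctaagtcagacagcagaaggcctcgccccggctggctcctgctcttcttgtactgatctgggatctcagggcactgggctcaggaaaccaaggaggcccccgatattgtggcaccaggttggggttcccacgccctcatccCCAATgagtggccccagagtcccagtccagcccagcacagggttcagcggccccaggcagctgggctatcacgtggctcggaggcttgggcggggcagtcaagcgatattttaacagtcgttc
Elovl6 (chr3:129532136-129532435, plus strand): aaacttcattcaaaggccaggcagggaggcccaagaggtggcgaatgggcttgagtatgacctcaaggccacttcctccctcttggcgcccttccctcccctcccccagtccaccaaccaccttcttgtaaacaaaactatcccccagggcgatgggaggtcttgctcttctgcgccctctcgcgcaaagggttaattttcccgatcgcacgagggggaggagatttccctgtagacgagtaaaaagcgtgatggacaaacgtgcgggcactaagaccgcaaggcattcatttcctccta
Fasn (chr11:120824498-120824797, minus strand): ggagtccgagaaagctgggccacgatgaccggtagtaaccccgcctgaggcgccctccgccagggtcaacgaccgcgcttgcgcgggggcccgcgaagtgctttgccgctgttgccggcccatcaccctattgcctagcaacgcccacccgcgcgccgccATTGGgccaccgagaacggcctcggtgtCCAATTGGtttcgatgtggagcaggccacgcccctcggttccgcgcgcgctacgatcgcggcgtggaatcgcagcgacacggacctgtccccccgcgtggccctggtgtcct
Tecr (chr8:83594442-83594741, minus strand): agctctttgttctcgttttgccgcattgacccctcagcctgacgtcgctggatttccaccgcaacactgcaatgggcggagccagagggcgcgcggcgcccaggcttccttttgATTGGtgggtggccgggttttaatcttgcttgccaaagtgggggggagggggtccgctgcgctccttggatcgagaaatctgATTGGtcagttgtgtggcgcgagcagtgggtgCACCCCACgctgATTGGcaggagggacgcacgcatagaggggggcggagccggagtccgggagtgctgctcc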

How the data were processed

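RNA of GFP+ keratinocytes was measured in 8 samples, grouped by their labels as 4 control and 4 p16 samples. The 13 samples of another profiling of the same study were not analysed here. The members and gene lists were chosen with earlier results of these data known. The authors sequenced the 3′ ends of transcripts (adapted CEL-Seq2), used Cutadapt for trimming and Tophat2 for alignment to GRCm38, and the submitters' processing notes also list HTSeq and DESeq2. Annotation version and use of molecular identifiers are not given in the sources used here. The 4 samples per group came from 3 independent experiments. In the labels, replicate 3 of both groups has a library protocol worded differently from the others.

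Each deposited signal value is a gene's read count over the size factor of its sample, rounded to 1 decimal, and is called normalized reads here. The authors also deposited group means, log2 fold changes, a test statistic and p-values, which were not used. Low values of each sample were whole multiples of the value of 1 read, between 0.74183 and 1.5278, so that whole reads could be recovered for 100% of values (tolerance 0.06). Of 22050 entries, 6658 were at 0 in every sample. No pair of libraries agreed within sampling noise.

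The comparison used limma 3.58.1 (two-sided, eBayes with a trend) under R 4.3.3 on log2(normalized reads + 1), for the 12782 genes with a mean of at least 1, with Benjamini-Hochberg adjustment over all of them and a threshold of 0.05. Single genes also had an exact two-sided permutation test. Scripts were tested on simulated data. Alternatives were a pseudocount of 0.1, no filter, a mean of at least 10, equal totals, edgeR 4.0.16 (TMM) and DESeq2 1.42.0 on the recovered reads, replicate number as a block, replicate 3 of both groups left out, each sample left out, and unadjusted p-values. On the recovered reads edgeR called 299 of 10700 genes lower and 160 higher, and DESeq2 355 of 12705 lower and 188 higher. Named genes were all members by role, with values in every sample for each called member and for Fasn, Acaca, Srebf1, Dgat2, Mc5r and Fabp5, group values for members at an unadjusted p under 0.05, and the called genes of the other pathway list. Values of Tecr, the overlapping genes and named markers were added after they were seen. A planned alignment of member proteins was not run. In the sebaceous list 1 marker is counted and not reported singly here. One listed pathway gene, Hsd17b8, had no matching symbol, and Gpat3 was found as Agpat9. Gene coordinates come from GENCODE M21 (GRCm38). Intervals of count ratios and limits of detection (3 reads over a group) cover counting error only, and intervals of log2 fold changes come from limma.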

Additional observations from a re-analysis of the deposited data

Results flagged for a closer look

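The 44 tested lipid genes and the 6 called genes of the other pathway list gave 99 groups of 4 values that were not all equal. Of these, 8 held a sample far from the other 3, where chance alone gives about 1 in 20. Elovl3 in p16 replicate 2 had 17.2 normalized reads, against 4.8 to 5.8 in the other p16 samples. Soat1 in the same sample had 10.1, against 4.4 to 4.9. Both genes were called lower with and without this sample. Srebf1 in p16 replicate 3 had 183.5, against 244.4 to 254.9.

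Among the controls, Scd2 in replicate 4 had 213.9, against 80.2 to 94.2 in the others. Tecr in replicate 4 had 2944.1, against 2514.8 to 2582.3, and Plin3 in replicate 4 had 456.8, against 522.2 to 527.8. Elovl7 in replicate 3 had 244.7, against 159.1 to 169.9. Hacd3 in replicate 2 had 542.9, against 592.7 to 602.0.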

How the results depend on the processing

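Across the 16 alternatives, 499 values of the 32 single genes kept their direction and 0 reversed, while 52 lost a call and 10 gained one. These genes were the members at an unadjusted limma p under 0.05, the called other pathway genes, and Fasn, Acaca, Dgat2 and Fabp5. Most were thus picked for a difference in these same data, so the lack of reversals was likely from the start. The number of lipid genes called lower, 14, was 9 without replicate 3 of both groups and between 9 (without Control replicate 3) and 15 in fits that left out a sample. In the same settings the number of all genes called lower, 334, was 157 and 177 to 343, and the number called higher, 159, was 66 and 69 to 196. Other pathway genes called lower, 6, were 3 and 3 to 8. Fewer samples enter these fits. At unadjusted p-values the counts were 1141 and 897 for all genes, 1 lipid gene higher, and 13 lower and 2 higher of the other pathway genes, and fits that left out a sample called 0 higher in both lists. The median of the lipid genes, -0.37, lay between -0.45 (without Control replicate 2) and -0.38 in fits that left out a sample.

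With replicate number as a block, limma called 15 lipid genes lower (0 higher), 7 other pathway genes lower (0 higher) and, of all genes, 392 lower and 216 higher, with a lipid gene median of -0.37. Fads3 was lost (0.063) and Tecr (0.0456) and Acsl4 (0.00961) were gained. Deviations of samples with the same number correlated at 0.106, 0.021, 0.064 and 0.178 over 10431 genes for replicates 1 to 4. The highest correlations with another number were 0.097, 0.131, 0.057 and -0.055, so only replicate 2 correlated more with another number. All these correlations were weak and do not settle whether the numbers pair the samples. The main fit used no pairing.

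Depth limits the genes with few reads, among them Cd36, Awat2, Fads3, Mc5r, Cidec and Plin5. The experiment of each sample is not given in the sources used here, and with pooled mice the p-values measure the spread between pools.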
